A study of Mus musculus with 20 samples.

Results

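Expression of 36 genes of proximal tubule transport and identity was compared between male mice labelled Lxrα-/- and male wild-type mice, in kidney and in liver. The genes were chosen by symbol, as transporters, endocytic receptors, enzymes and regulators that mark this tubule segment. All 36 are rows of a table of raw counts for 54532 genes. Total RNA of whole kidney and whole liver gave 20 libraries in 4 groups of 5: labelled-knockout kidney, wild-type kidney, labelled-knockout liver and wild-type liver, all on a C57BL/6 background. Labelled-knockout mice are numbered 1 to 5 and wild-type mice 1, 3, 4, 5 and 6, and each has a kidney and a liver library by its label. The labels give neither the deleted part of the gene nor age, diet or litter. The p-values set the group difference against the spread between these mice. A difference between the groups in something that the labels leave out cannot be told apart from genotype. Lxrα, a nuclear receptor activated by oxysterols, is encoded by Nr1h3. Counts of Nr1h3 were higher, not lower, in the labelled knockout (kidney, 126 ± 21.7 CPM against 52.1 ± 2.27 CPM in wild type, SD, n = 5 each), so genotypes are named here as labelled. Levels are in CPM, which are counts relative to the library total after a trimmed-mean (TMM) correction.

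The proximal tubule is the first part of the nephron after the glomerulus. Its cells reabsorb most of the filtered phosphate, glucose, amino acids, bicarbonate and sulfate through sodium-coupled carriers in the brush border, take up filtered proteins by megalin and cubilin, and make active vitamin D. Carriers of the early convoluted segments (such as SGLT2, encoded by Slc5a2) differ from those of the late straight segment (such as SGLT1, encoded by Slc5a1). The nuclear receptor HNF4A and the homeodomain factor HNF1 are regulators of many of these genes, in liver cells as well as in tubule cells.

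Promoter sequence was at hand for 29 of the 36 genes (44 promoters, RefSeq on GRCm38.p6, each running from 250 bases before to 50 bases after a start of transcription). Both strands were searched for GTTAAT, which is 1 arm of the HNF1 motif. It lay in 8 of the 29 genes, against 8.24% of all genes in that table (8 of 44 promoters, against 7.1% of all promoters). CAAAGTCCA, an HNF4A motif that shares no letters with GTTAAT here, lay in 2 of the 29 genes against 0.555% of all genes. The full HNF1 palindrome (GTTAAT, any 1 base, ATTAAC), which contains the arm, and a direct repeat of the kind that LXR binds (AGGTCA, any 4 bases, AGGTCA) were in none of the 29 genes, and in 3 and 4 genes of the whole table. A match describes letters only. The following 6 promoters show the 250 bases before the start, 5′ to 3′ on the strand of the gene, with motif letters in capitals. They belong to the main phosphate carrier, to Hnf4a itself, to the gene with the largest kidney fold change (Acsm2), to a gene with an HNF4A match (Slc3a1), and to the pair with the largest liver fold changes (Lrp2 and Slc13a2). Hnf4a and Acsm2 each had another promoter among the 44, not shown here, with no match to GTTAAT or CAAAGTCCA.
Slc34a1, chr13:55399398-55399647, plus strand: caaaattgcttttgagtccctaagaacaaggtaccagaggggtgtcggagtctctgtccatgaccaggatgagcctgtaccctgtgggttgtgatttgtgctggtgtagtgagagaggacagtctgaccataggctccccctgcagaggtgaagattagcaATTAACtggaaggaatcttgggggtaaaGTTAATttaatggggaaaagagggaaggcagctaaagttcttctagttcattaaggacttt
Hnf4a, chr2:163546905-163547154, plus strand: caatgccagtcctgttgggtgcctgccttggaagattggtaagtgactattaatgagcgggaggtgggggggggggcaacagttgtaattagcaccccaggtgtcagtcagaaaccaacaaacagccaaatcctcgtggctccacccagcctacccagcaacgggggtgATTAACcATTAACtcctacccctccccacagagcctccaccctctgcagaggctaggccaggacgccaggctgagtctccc
Acsm2, chr7:119554090-119554339, plus strand: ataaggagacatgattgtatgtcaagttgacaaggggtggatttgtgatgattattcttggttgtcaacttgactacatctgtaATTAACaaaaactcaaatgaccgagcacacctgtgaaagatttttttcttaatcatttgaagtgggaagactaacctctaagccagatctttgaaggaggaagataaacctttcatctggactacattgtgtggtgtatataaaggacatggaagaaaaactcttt
Slc3a1, chr17:85028097-85028346, plus strand: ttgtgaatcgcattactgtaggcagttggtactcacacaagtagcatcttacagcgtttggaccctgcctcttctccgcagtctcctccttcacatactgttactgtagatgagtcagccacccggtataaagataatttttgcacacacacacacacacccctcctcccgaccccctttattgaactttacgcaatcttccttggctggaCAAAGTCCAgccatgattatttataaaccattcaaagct
Lrp2, chr2:69586030-69586279, minus strand: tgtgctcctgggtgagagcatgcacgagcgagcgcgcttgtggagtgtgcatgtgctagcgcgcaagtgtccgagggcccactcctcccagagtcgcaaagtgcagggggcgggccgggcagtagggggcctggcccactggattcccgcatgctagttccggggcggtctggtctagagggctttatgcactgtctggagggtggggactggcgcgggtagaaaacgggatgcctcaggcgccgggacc
Slc13a2, chr11:78422235-78422484, minus strand: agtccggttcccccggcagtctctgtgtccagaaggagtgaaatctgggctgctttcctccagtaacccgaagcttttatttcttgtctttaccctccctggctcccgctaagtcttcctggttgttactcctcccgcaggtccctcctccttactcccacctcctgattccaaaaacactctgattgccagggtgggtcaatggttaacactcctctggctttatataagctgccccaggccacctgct
Counting the first transcribed base as +1, the GTTAAT matches of Slc34a1 lay at -89 to -84 on the minus and at -61 to -56 on the plus strand of the gene, and those of Hnf4a at -81 to -76 and -74 to -69, both on the minus strand. Acsm2 held it at -166 to -161, and Slc3a1 held CAAAGTCCA at -39 to -31 and GTTAAT just past the start, at 2 to 7. The other 4 genes with GTTAAT were Miox, Dab2, Slc5a10 and Slc7a7, and the other gene with CAAAGTCCA was Pdzk1. No match was found in these windows for Lrp2 or Slc13a2.

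Total counts ran from 23421561 to 35376342 per library. Wild-type kidney 3 stood apart: 50.8% of its counts were mitochondrially encoded, against 7.21% in wild-type kidney 1 and 12.6% to 21.1% in the other kidneys. The 36 genes made up 2.76% to 5.37% of the counts of wild-type kidneys and 5.80% to 6.75% of those of labelled-knockout kidneys. Of the counts that were not mitochondrially encoded, they made up 4.995% to 6.58% in wild type and 6.69% to 7.86% in the labelled knockout. On that measure wild-type kidney 3, at 5.61%, lay inside the wild-type range. Kap alone made up 1.45% to 3.17% of all counts in wild-type and 3.11% to 4.27% in labelled-knockout kidneys. Without Kap, the rest of the set made up 1.32% to 2.79% and 2.28% to 2.82% of all counts, and these ranges overlapped. Of the 36 kidney fold changes, 25 turned sign or moved by over 1.5 times on the log2 scale without wild-type kidney 3 or without both wild-type kidneys 1 and 3, and these are given without them where the gene is described. No gene of the 36 was called under either setting.

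In kidney, none of the 36 genes passed the test between genotypes (edgeR quasi-likelihood test, Benjamini-Hochberg adjusted p, threshold 0.05), where 2.26% of the 16500 genes tested did. At an unadjusted p under 0.05 the count was 4 of 36 (Slc13a1, Slc13a3, Acsm2 and Ggt1, each with the higher mean in the labelled knockout), beside 19.8% of all genes (5.81% with the higher mean in the labelled knockout). DESeq2 called 2 of 36 higher in the labelled knockout, Ggt1 and Kap, against 1.65% of all genes. Limma voom with quality weights called 7 of 36 higher, Lrp2, Slc13a3, Slc26a1, Slc6a18, Slc3a1, Acsm2 and Acsm3, against 4.85% of all genes. No gene was called by both of these tools. The fitted log2 fold changes of labelled knockout over wild type ran from -0.37 (Slc7a8) to 0.77 (Acsm2), with 31 of 36 above 0 (86.1%, against 43.8% of all genes) and a median of 0.32 against -0.07 over all genes. Without wild-type kidney 3 the median was 0.20 with 29 genes above 0, and without TMM scaling 0.21 with 25 genes above 0. When the libraries were scaled to the median level of 25 other proximal tubule genes instead, 2 of 36 fold changes were above 0. The median of the 36 was then -0.53, with the median of all genes at -0.96. On the main scale the 25 genes had a median of 0.30, near that of the 36. A value below 0 on the other scale is thus not by itself a fall relative to those genes. Under each of these settings the median of the 36 genes lay above that of all genes. In whole-kidney RNA, a different share of tubule cells and a different RNA level per tubule cell cannot be told apart.

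**Figure D1:**
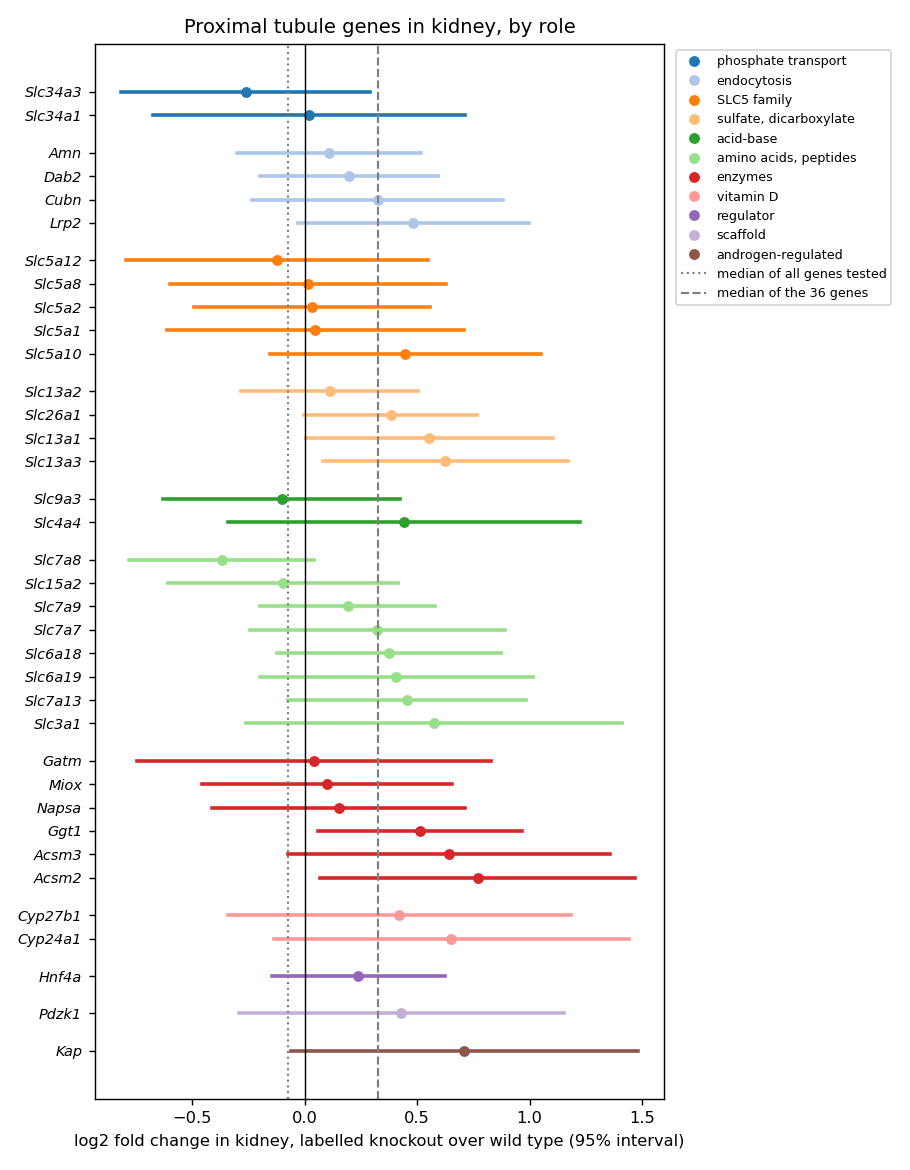
Log2 fold change in kidney of labelled knockout over wild type (x axis) for the 36 genes (y axis), grouped and coloured by role, with the 95% interval of the edgeR fit as a line. The dashed line is the median of the 36 genes (0.32) and the dotted line that of all 16500 genes tested (-0.07), and most intervals cross 0.

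Among the phosphate carriers, Slc34a1 encodes NaPi-IIa, the main renal sodium-phosphate cotransporter, and lies on chromosome 13 (55398187 to 55415592, plus strand, mm10). It stood at 5177, 5012, 3441, 2785 and 1790 CPM in wild-type kidneys 1, 3, 4, 5 and 6 and at 5030, 2724, 3685, 3324 and 3681 CPM in labelled-knockout kidneys 1 to 5. The wild-type values covered the whole range of the labelled-knockout values. The group means were 3641 ± 1452 and 3689 ± 846 CPM (SD, n = 5), a log2 fold change of 0.02 with a 95% interval from -0.68 to 0.71, and edgeR gave an adjusted p of 0.977. It was 0.20 without wild-type kidney 3 and 0.47 without wild-type kidneys 1 and 3, and its sign turned in 7 of the alternatives. Slc34a3, which encodes the second renal phosphate carrier NaPi-IIc, ran from 72.1 to 126 CPM in wild type and from 45.2 to 109 CPM in the labelled knockout (log2 fold change -0.26, interval -0.82 to 0.29).

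The endocytosis genes encode megalin (Lrp2), cubilin (Cubn), amnionless (Amn), which carries cubilin to the membrane, and the adaptor DAB2 (Dab2). Lrp2 (chromosome 2, 69424340 to 69586065, minus strand) stood at 1203, 765, 926, 1062 and 1662 CPM in wild-type kidneys 1, 3, 4, 5 and 6, and at 1647, 1396, 1492, 1666 and 1651 CPM in labelled-knockout kidneys 1 to 5. Wild-type kidney 6 lay within the labelled-knockout range, and the other 4 wild-type kidneys lay below it. The log2 fold change was 0.48 (SE 0.24, interval -0.03 to 0.998, edgeR adjusted p = 0.281). Limma voom with quality weights gave 0.56 with an adjusted p of 0.0181. The spread of Lrp2 was smaller in the labelled knockout, with a coefficient of variation of 7.67% against 30.4% in wild type, and Cubn was at 5.39% against 37.5%. Cubn, Dab2 and Amn had log2 fold changes of 0.33, 0.20 and 0.11, and their groups overlapped. Without wild-type kidneys 1 and 3 these values were 0.15, 0.08 and 0.04, and without wild-type kidney 3 alone 0.16, 0.15 and 0.07.

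Of the SLC5 family, Slc5a2 encodes the early-segment glucose carrier SGLT2. It stood at 441, 463, 350.5, 513 and 501 CPM in wild-type kidneys 1, 3, 4, 5 and 6, and at 667, 443, 579, 328 and 303 CPM in labelled-knockout kidneys 1 to 5. The labelled-knockout kidneys spanned both ends of the scale, with mouse 1 highest of all 10 and mice 4 and 5 lowest. The log2 fold change was 0.03 (interval -0.49 to 0.56, edgeR adjusted p = 0.947), and 0.06 without wild-type kidney 3. Slc5a10, which encodes the mannose and fructose carrier SGLT5, had the largest fold change of this family. It stood at 129, 38.3, 139, 111 and 123 CPM in wild-type kidneys 1, 3, 4, 5 and 6 and at 139, 126, 137, 175 and 160 CPM in labelled-knockout kidneys 1 to 5. Wild-type kidney 3 was low, and wild-type kidneys 1 and 4 lay within the labelled-knockout range (log2 fold change 0.45, SE 0.28, edgeR adjusted p = 0.372). Without wild-type kidney 3 the value was 0.26. Slc5a1, the gene of SGLT1, and the monocarboxylate carrier genes Slc5a8 and Slc5a12 had log2 fold changes of 0.05, 0.01 and -0.12, which were -0.16, -0.17 and -0.18 without wild-type kidney 3 and -0.24, -0.24 and -0.21 without wild-type kidneys 1 and 3.

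The carriers of sulfate and dicarboxylates had the highest median of the roles with at least 3 members, 0.47 over 4 genes, and 2 of the 4 had the higher mean in the labelled knockout at an unadjusted p under 0.05, beside 5.81% of all genes. Slc13a3 encodes the basolateral dicarboxylate carrier NaDC3 (chromosome 2, 165405028 to 165473230, minus strand). It stood at 537, 205, 517, 531 and 454 CPM in wild-type kidneys 1, 3, 4, 5 and 6 and at 722, 655, 611, 728 and 744 CPM in labelled-knockout kidneys 1 to 5. The groups did not overlap, and wild-type kidney 3 lay far below the other wild types. Slc13a3 and Ggt1 were the 2 of 36 genes (5.56%) whose labelled-knockout values all lay above the wild-type values, which held for 2.79% of all genes, and no gene of the 36 showed the opposite order, which held for 4.13% of all genes. The log2 fold change of Slc13a3 was 0.62 (SE 0.25, interval 0.08 to 1.17, edgeR adjusted p = 0.201). Slc13a1, the brush-border sulfate carrier, ran from 116 to 338 CPM in wild type and from 263 to 369 CPM in the labelled knockout (log2 fold change 0.55, and 0.26 without wild-type kidneys 1 and 3). The basolateral sulfate exchanger gene Slc26a1 had 0.38, but its whole span of 5692 bases overlaps Idua on the opposite strand, and use of strand in counting is not given in the sources used here. Slc13a2, the apical dicarboxylate carrier, stood at 50.2, 35.8, 41.1, 30.2 and 28.7 CPM in wild-type kidneys 1, 3, 4, 5 and 6 and at 43.9, 32.95, 35.5, 41.5 and 47.1 CPM in labelled-knockout kidneys 1 to 5. These groups overlapped (log2 fold change 0.11, and 0.27 without wild-type kidneys 1 and 3). Slc13a2os, an antisense gene that overlaps Slc13a2, had 184 counts in wild-type kidney 1 and 16 to 49 in each other kidney. Its part in the kidney values of Slc13a2 was not tested.

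For acid-base transport, Slc4a4, which encodes the basolateral sodium-bicarbonate cotransporter, had a log2 fold change of 0.44 and Slc9a3, the sodium-hydrogen exchanger NHE3, one of -0.10. Without wild-type kidney 3 these were 0.23 and 0.16. Among the 8 carriers of amino acids and peptides, Slc3a1 had the largest fold change. It encodes rBAT, the heavy subunit of the cystine carrier, and stood at 277, 39.2, 126, 159 and 259 CPM in wild-type kidneys 1, 3, 4, 5 and 6 and at 275, 190.5, 250 and 273 CPM in labelled-knockout kidneys 1 to 4, with 292 CPM in labelled-knockout kidney 5. Wild-type kidney 3 was lowest by a wide margin, and wild-type kidneys 1 and 6 lay among the labelled knockouts (log2 fold change 0.57, SE 0.39, edgeR adjusted p = 0.405). Without wild-type kidney 3 the value was 0.35, below the 0.56 of Slc6a18 and the 0.38 of Slc7a13. Its light-subunit partner Slc7a9 had 0.19. The neutral amino acid carriers of the brush border, Slc6a19 and Slc6a18, had 0.41 and 0.37, the late-segment carrier Slc7a13 had 0.45, and the basolateral Slc7a7 had 0.32. Without wild-type kidneys 1 and 3 the values were 0.10 for Slc7a9, 0.60 for Slc6a18, 0.26 for Slc7a13 and 0.07 for Slc7a7, and without wild-type kidney 3 alone Slc7a7 had 0.18. Negative values were found for Slc7a8 (-0.37, interval -0.78 to 0.04), which encodes the basolateral carrier LAT2, and for the peptide carrier Slc15a2 (-0.10, and -0.37 without wild-type kidneys 1 and 3).

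The 6 enzyme genes all had a fold change above 0 on the main scale. Scaled to the other proximal tubule genes, where the median of all genes was -0.96, 5 of them (all but Acsm2) were below 0. Napsa, Miox and Gatm were also below 0 with limma voom and without wild-type kidneys 1 and 3. Acsm2, which encodes a mitochondrial medium-chain acyl-CoA synthetase (chromosome 7, 119554340 to 119600690, plus strand), had the largest fold change of the 36 genes. It stood at 3471, 1258, 3387, 3043 and 4777 CPM in wild-type kidneys 1, 3, 4, 5 and 6 and at 6052, 4525, 5406, 5583 and 5592 CPM in labelled-knockout kidneys 1 to 5. Only wild-type kidney 6 reached into the labelled-knockout range. The means were 3187 ± 1264 and 5431 ± 560.5 CPM, and the log2 fold change was 0.77 (SE 0.32, interval 0.07 to 1.47, edgeR adjusted p = 0.217). Ggt1, the brush-border gamma-glutamyltransferase (chromosome 10, 75561604 to 75586200, plus strand), stood at 1011, 1041, 1128, 915 and 803 CPM in wild-type kidneys 1, 3, 4, 5 and 6 and at 1228, 1144, 1343, 1484 and 1785 CPM in labelled-knockout kidneys 1 to 5. The groups did not overlap, and here wild-type kidney 3 lay inside its group. The log2 fold change was 0.51 (SE 0.21, interval 0.06 to 0.97), with an adjusted p of 0.208 by edgeR and 0.0278 by DESeq2. Acsm3 had 0.64, and Napsa, Miox and Gatm (an aspartic peptidase, the inositol oxygenase and the first enzyme of creatine synthesis) had 0.15, 0.10 and 0.04, which were -0.02, -0.14 and -0.18 without wild-type kidneys 1 and 3. Without wild-type kidney 3 alone, Miox had 0.04 and Gatm -0.15.

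**Figure D2:**
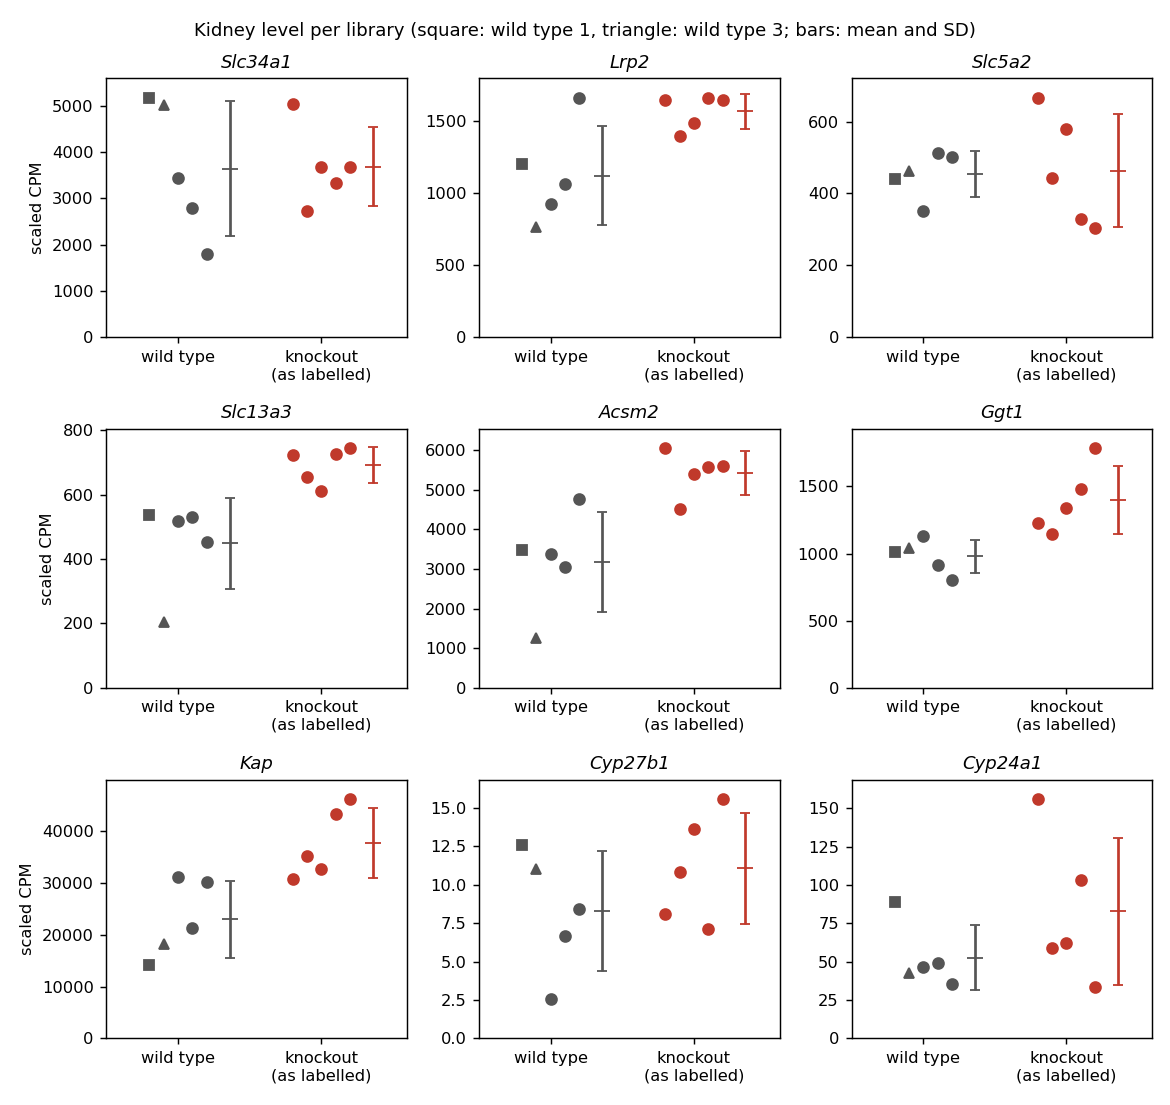
Scaled CPM (y axis, from 0) of 9 genes in each kidney library, in order of mouse number within wild type and labelled knockout (x axis), with wild-type kidneys 1 and 3 drawn as a square and a triangle and bars for mean and SD (n = 5). Slc13a3 and Ggt1 are the panels in which the groups do not overlap, and wild-type kidney 3 is the lowest point for Lrp2, Slc13a3 and Acsm2.

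Vitamin D is activated in this segment by the hydroxylase that Cyp27b1 encodes and degraded by that of Cyp24a1. Cyp27b1 was the lowest of the 36 genes, at 12.6, 11.03, 2.58, 6.69 and 8.45 CPM in wild-type kidneys 1, 3, 4, 5 and 6, and at 8.13, 10.8, 13.65, 7.12 and 15.6 CPM in labelled-knockout kidneys 1 to 5. Its groups overlapped (log2 fold change 0.42, interval -0.34 to 1.18, edgeR adjusted p = 0.493), and the fold change was 0.90 without wild-type kidneys 1 and 3. Cyp24a1 stood at 89.1, 42.7, 46.7, 49.3 and 35.4 CPM in wild-type kidneys 1, 3, 4, 5 and 6, and at 156, 58.7, 62.1, 103 and 33.7 CPM in labelled-knockout kidneys 1 to 5. The highest and the lowest of the 10 kidneys were both labelled knockouts, numbers 1 and 5 (log2 fold change 0.65, interval -0.14 to 1.44, edgeR adjusted p = 0.330). Of 12 further genes of phosphate handling and vitamin D signalling, none passed the test. The smallest p-values of that list were those of Rxra, the partner of the vitamin D and LXR receptors (log2 fold change 0.56, edgeR adjusted p = 0.210), the phosphate carrier Slc20a2 (0.32, adjusted p = 0.251) and the parathyroid hormone receptor Pth1r (0.44, adjusted p = 0.260). The list had a median of 0.30, which was -0.54 when scaled to the other proximal tubule genes, a scale with the median of all genes at -0.96.

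Hnf4a, the regulator gene, varied little between kidneys. It stood at 586, 488, 554, 615 and 617 CPM in wild-type kidneys 1, 3, 4, 5 and 6, and at 709, 602, 692, 606 and 763 CPM in labelled-knockout kidneys 1 to 5. The groups overlapped between 602 and 617 CPM (log2 fold change 0.24, interval -0.15 to 0.62, edgeR adjusted p = 0.448). Pdzk1, which encodes a scaffold that anchors brush-border carriers, ran from 97.5 to 475 CPM in wild type and from 325 to 489 CPM in the labelled knockout (log2 fold change 0.43), and its lowest value was again that of wild-type kidney 3, without which the fold change was 0.22.

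Kap encodes a kidney androgen-regulated protein and was by far the most abundant of the 36 genes (chromosome 6, 133849851 to 133853762, minus strand). It stood at 14170, 18220, 31100, 21270 and 30180 CPM in wild-type kidneys 1, 3, 4, 5 and 6, and at 30730, 35160, 32740, 43160 and 46190 CPM in labelled-knockout kidneys 1 to 5. Labelled-knockout kidney 1 lay just below wild-type kidney 4, and all other labelled knockouts lay above every wild type. The log2 fold change was 0.71 (SE 0.36, interval -0.06 to 1.48), with an adjusted p of 0.290 by edgeR and 0.0478 by DESeq2. It was 0.45 without wild-type kidneys 1 and 3. Of 5 further genes that androgens raise in mouse kidney, 3 passed edgeR's test as higher in the labelled knockout, beside 65 of 16500 genes. The 3 were the anion carrier Slco1a1 (log2 fold change 2.25, adjusted p = 0.0261), the polyamine enzyme Odc1 (1.88, adjusted p = 0.0339) and the cytochrome Cyp2j13 (1.56, adjusted p = 0.0359). Their summed level with Cyp4b1 and Gusb was 680 to 3993 CPM in wild type and 5595 to 9719 CPM in the labelled knockout, and the part of these genes in the Kap values was not tested. Cyp4b1 also belongs to the list of 25 other proximal tubule genes. The count of 3 was 4 without wild-type kidneys 1 and 3 and 5 without wild-type kidney 6. It was 0 without any 1 of labelled-knockout kidneys 1, 3, 4 and 5, where the adjusted p of Slco1a1 was 0.0561 to 0.0784, and 1 without wild-type kidney 1, 4 or 5.

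The 36 genes did not vary together across the kidneys. Labelled-knockout kidney 1 was the highest of the 10 for 13 genes, among them 6 of 8 early-segment genes (Slc5a2, Slc5a12, Slc6a19, Slc7a7, Slc7a8, Slc4a4, Slc34a1 and Gatm). Labelled-knockout kidney 5 was the highest for 10 genes and the lowest for 4, and 3 of those 4 were early-segment genes. The mean log2(CPM + 1) of 6 late-segment genes (Slc5a1, Slc5a8, Slc5a10, Slc6a18, Slc7a13 and Acsm3) minus that of the 8 early genes was -1.09, -0.48, -0.65, 0.11 and 0.30 in labelled-knockout kidneys 1 to 5. In wild-type kidneys 1, 3, 4, 5 and 6 it was -0.67, -1.02, -0.37, -0.75 and -0.49. Labelled-knockout kidneys 4 and 5 were the only libraries of the 10 with a late mean above the early mean, while labelled-knockout kidney 1 had the most negative difference. Neither list had a gene that passed the test, and their median log2 fold changes were 0.04 (early) and 0.41 (late).

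**Figure D3:**
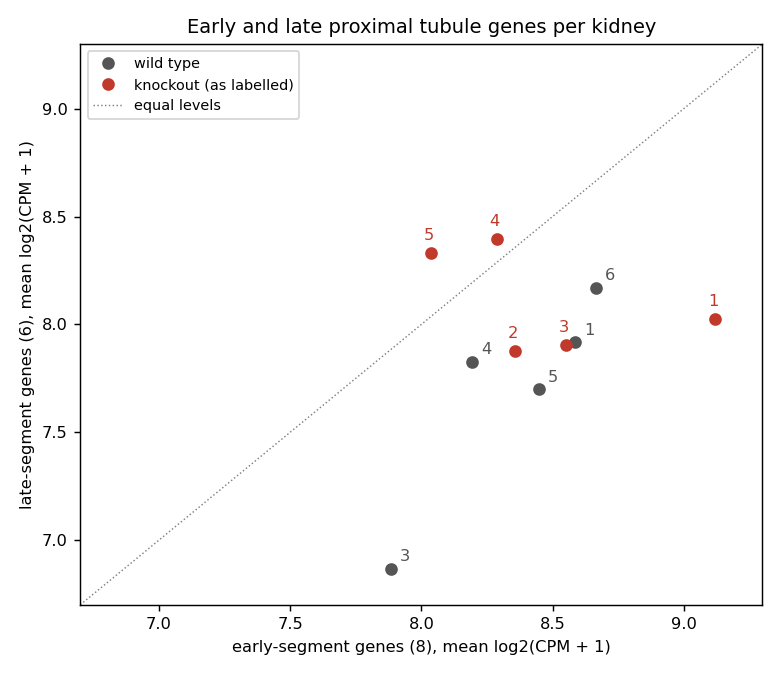
Mean log2(CPM + 1) of 8 early-segment genes (x axis) and of 6 late-segment genes (y axis) in each kidney library, numbered by mouse, with wild type in grey, labelled knockout in red and a dotted line of equal levels. Labelled-knockout kidneys 4 and 5 lie above the line, labelled-knockout kidney 1 lies farthest right, and wild-type kidney 3 is lowest on both axes.

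Wild-type kidney 3 was the lowest of the 10 kidneys for 18 of the 36 genes, among them 5 of the 6 late-segment genes and 4 of the 8 early ones. Its ratio to the median of the other 4 wild types ran from 0.188 for Slc3a1, 0.255 for Pdzk1 and 0.286 for Slc5a1 to 1.66 for Slc6a18 and 1.99 for Slc9a3, and it was under 0.5 for 12 genes. For Slc6a18 and Slc9a3 this kidney lay above all other wild types. The low levels in that library were thus uneven across genes. The median coefficient of variation of the 36 genes was 31.8% in wild-type and 18.1% in labelled-knockout kidneys, and it was smaller in the labelled knockout for 24 genes. This difference in spread was not tested.

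Marker genes of other kidney cells were counted in the same way. Over all genes, 308 of 16500 passed edgeR's test as lower in the labelled knockout and 65 as higher. Of 7 stromal genes, 4 passed edgeR's test and were lower in the labelled knockout, with a summed level of 219 to 634 CPM in wild type and 72.0 to 139 CPM in the labelled knockout. The count was 4 as well without wild-type kidneys 1 and 3, and from 3 to 6 (the latter without wild-type kidney 6) when any 1 kidney was left out. Of 6 lymphocyte genes 3 were lower and of 6 endothelial genes 1 (Cdh5), with summed levels of 5.65 to 9.35 against 1.22 to 3.63 CPM and of 253 to 287 against 96.1 to 240 CPM. The lymphocyte count was 0 or 1 without any 1 of wild-type kidneys 4 and 5 and labelled-knockout kidneys 1, 3, 4 and 5, and the endothelial count was 0 without any 1 of those or wild-type kidney 1. None of 6 podocyte genes passed (241 to 382 CPM in wild type, 86.4 to 310 CPM in the labelled knockout), nor any of 6 macrophage, 4 thick ascending limb, 4 distal tubule or 7 collecting duct genes, or of 7 injury genes tested (2 of which passed without labelled-knockout kidney 2). Every stromal, lymphocyte, endothelial, podocyte and macrophage gene had a fold change below 0, beside 9267 of 16500 genes. Below 0 were also 3 of 4 thick ascending limb, 3 of 4 distal tubule, 6 of 7 collecting duct and 5 of 7 injury genes. Of 25 other proximal tubule genes, 1 passed: Slc22a6, the organic anion carrier OAT1 (log2 fold change 1.11, edgeR adjusted p = 0.0332), with a median of 0.30 over the list. That call was lost without any 1 of 7 kidneys (wild types 1, 4 and 5 and labelled knockouts 1, 3, 4 and 5, adjusted p 0.0604 to 0.101), and 4 of the 25 passed without wild-type kidney 3, 3 without wild-type kidney 6 and 2 without labelled-knockout kidney 2. The summed level of the 36 genes was 34820 to 53080 CPM in wild type and 57440 to 73040 CPM in the labelled knockout, and without Kap 16600 to 22900 and 22710 to 27840 CPM. The part of the cell mixture in the fold changes of the 36 genes was not tested.

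In wild-type mice, 34 of the 36 genes passed the test with a higher level in kidney than in liver (edgeR, 53.8% of 16645 genes called, 29.6% higher in kidney and 24.2% lower). The 2 others were Hnf4a and Slc26a1. Hnf4a, a master regulator of hepatocytes too, had a log2 difference of -0.08 between wild-type kidney and liver (SE 0.18, adjusted p = 0.734), and one of 0.58 that passed as higher in kidney without TMM scaling (adjusted p = 0.0431), a setting that moved the median of all genes from 0.05 to 0.69. Slc26a1 was called lower in kidney (log2 difference -1.09, adjusted p = 0.000332), a call lost without TMM scaling (-0.42, adjusted p = 0.174). In liver the overlapping gene Idua had 143 to 244 counts per wild-type library, and Slc26a1 had 25779 counts over the 5. The part of Idua reads in the Slc26a1 values was not tested.

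Per kilobase of transcript, the level of Kap in wild-type kidney was 32520 CPM per kb, followed by Miox at 1707, Slc34a1 at 779, Napsa at 625, Acsm2 at 429, Ggt1 at 287, Slc7a13 at 253 and Slc5a2 at 157 CPM per kb. The lowest were Slc15a2 at 12.8 and Cyp27b1 at 3.21 CPM per kb. In this order 31 of 35 neighbouring pairs overlapped in their ranges over the 5 wild-type kidneys. The exceptions were Kap above Miox, Miox above Slc34a1, Slc7a13 above Slc5a2 and Slc15a2 above Cyp27b1. Every one of the 36 genes had at least 67 counts in every kidney.

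Liver counts separated the genes into those not detected there at this depth and those with reads in both tissues. Kap, Slc6a18 and Cyp24a1 had 0 counts in all 10 livers, and Slc5a8, Slc5a12 and Slc7a13 had 0 counts in all 5 wild-type livers. A count of 0 allows up to 3 counts over the 5 wild-type livers, which is 0.021 CPM on library size alone, so the kidney level was at least 1120000-fold higher for Kap, 26700-fold for Slc7a13, 23200-fold for Slc6a18, 10500-fold for Slc5a8, 6780-fold for Slc5a12 and 2720-fold for Cyp24a1. Such floors cover counting error only. At the other end, Hnf4a, Slc26a1, Acsm3, Slc4a4, Pdzk1, Slc13a3, Dab2, Slc3a1 and Gatm had more than 1000 counts over the wild-type livers, so they were detected in liver as well as kidney. Markers of hepatocytes summed to 55.6 to 589 CPM in kidney, against 65690 to 132600 CPM in liver. Nearly all of the kidney sum was Ttr (49.0 to 582 CPM), and each of the other 6 markers lay between 0 and 7.47 CPM.

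**Figure D4:**
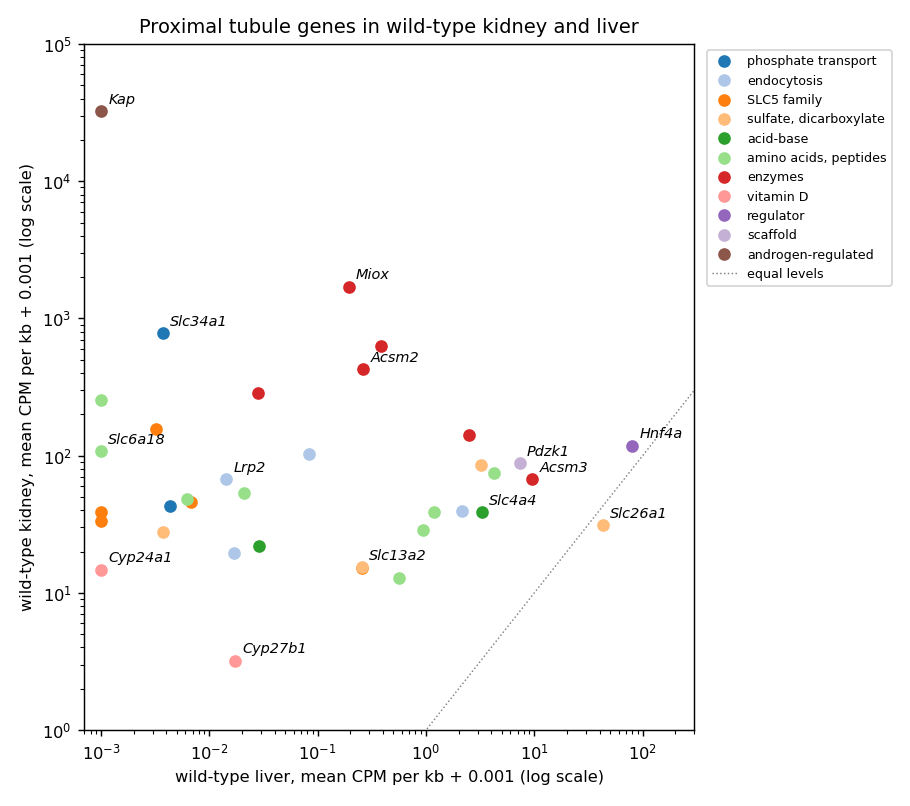
Mean level in wild-type kidney (y axis) against wild-type liver (x axis) of the 36 genes, in CPM per kb plus 0.001 on log scales, coloured by role, with a dotted line of equal levels. Hnf4a and Slc26a1 lie near the line, Kap lies at the upper left with no liver count, and 6 genes stand at the left edge because they had no count in wild-type liver.

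In liver, 17 of the 36 genes passed the filter on low counts, and 3 of these passed the test between genotypes, all higher in the labelled knockout (edgeR, 6.02% of 14822 genes called, 1.94% higher). Lrp2, 1 of the 3, passed that filter only through the labelled-knockout livers, so its entry and its call are not independent. With a filter at a mean of 1 CPM Lrp2 was not tested, and 2 of 15 genes were called. The 17 had a median log2 fold change of -0.07 against 0.00 for all genes, with 7 above 0 (49.5% of all genes were). In the 3 called genes the groups did not overlap, which held in this direction for 2.42% of all genes. Slc13a2 stood at 1.164, 0.441, 0.281, 0.325 and 0.862 CPM in wild-type livers 1, 3, 4, 5 and 6 and at 4.27, 2.31, 2.11, 1.995 and 2.04 CPM in labelled-knockout livers 1 to 5, which is 8 to 30 counts against 51 to 114 counts. The groups did not overlap (log2 fold change 2.05, SE 0.39, edgeR adjusted p = 0.00878), and no alternative lost this call (adjusted p 5.28e-06 to 0.0246). An antisense gene, Slc13a2os, overlaps 8571 bases of Slc13a2 and had 1 to 10 counts in each labelled-knockout liver and 0 to 2 in each wild-type liver. Reads of the 2 genes cannot be told apart without strand, and the part of antisense reads in the Slc13a2 values was not tested.

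Lrp2 stood at 0.0388, 0.184, 0.281, 0.292 and 0.316 CPM in wild-type livers 1, 3, 4, 5 and 6 (1 to 11 counts) and at 0.412, 0.922, 1.03, 1.21 and 2.55 CPM in labelled-knockout livers 1 to 5 (11 to 66 counts). Every labelled-knockout liver lay above every wild-type liver on this scale (log2 fold change 2.41, SE 0.51, edgeR adjusted p = 0.0144), and the call was lost with limma-trend on log2 FPKM (2.55, adjusted p = 0.0598). The level in labelled-knockout liver, 1.23 ± 0.80 CPM, compares with 1123 ± 342 CPM in wild-type kidney. Acsm2 stood at 1.32, 1.73, 2.22, 2.37 and 2.16 CPM in wild-type livers and at 2.55, 4.91, 3.64, 3.35 and 4.13 CPM in labelled-knockout livers, again without overlap (log2 fold change 0.92, SE 0.22, edgeR adjusted p = 0.0270). The Acsm2 call was lost without wild-type liver 3 or 6 or labelled-knockout liver 2 or 5 (adjusted p 0.0520 to 0.0643), with all 20 libraries in 1 fit (0.0762) and with limma-trend on log2 FPKM (0.0552). Kap, the most abundant kidney transcript of the set, was at 0 in the same livers. Hnf4a stood at 337 to 411 CPM in wild-type and 366 to 444 CPM in labelled-knockout livers (log2 fold change 0.05, adjusted p = 0.847).

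**Figure D5:**
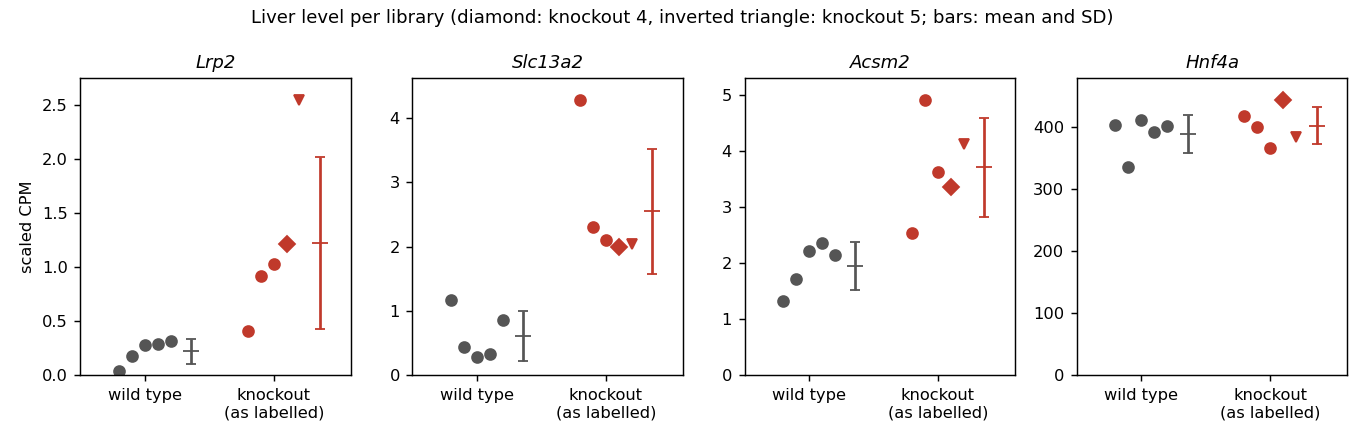
Scaled CPM (y axis, from 0) of Lrp2, Slc13a2, Acsm2 and Hnf4a in each liver library by genotype (x axis), with labelled-knockout livers 4 and 5 drawn as a diamond and an inverted triangle and bars for mean and SD (n = 5). The groups do not overlap for Lrp2, Slc13a2 and Acsm2 and overlap for Hnf4a.

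Labelled-knockout livers 4 and 5 stood apart from the other livers. The injury and acute-phase gene Lcn2 was at 1248 and 4146 CPM there, against 5.54 to 21.9 CPM in the other 8. In the same 2 libraries Slc3a1 was at 53.2 and 44.3 CPM against 5.28 to 20.7 CPM elsewhere, and Slc13a3 at 31.8 and 40.7 CPM against 14.8 to 17.4 CPM. Neither gene passed the test (log2 fold change 1.43 and 0.51, edgeR adjusted p = 0.152 and 0.310). Without these 2 livers, the Lrp2 and Acsm2 calls were lost (Lrp2, log2 fold change 1.78, adjusted p = 0.0857; Acsm2, 0.92, adjusted p = 0.0816) and Slc13a2 alone passed.

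The difference between tissues was tested as the kidney fold change by genotype minus the liver one. Kidney and liver share mouse labels, but the main fit had no term for mouse, which was used in an alternative only. Only Slc13a2 of the 36 genes passed (edgeR, 1.51% of 17606 genes called, 0.568% with a lower effect in kidney), with -1.91 on the log2 scale (SE 0.40, adjusted p = 0.0141), since its level was near equal by genotype in kidney and higher in labelled-knockout liver. No alternative lost this call (adjusted p 0.000312 to 0.0357). Lrp2 had a difference of the same size, -1.92, with an edgeR adjusted p of 0.0723. It passed by DESeq2 (adjusted p = 0.00835), without wild-type kidney 3 (0.0440) and without labelled-knockout liver 1 (0.0254). For Acsm2 the effects in the tissues were close, 0.77 in kidney and 0.92 in liver, with a difference of -0.14 and an interval from -0.95 to 0.68.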

How the data were processed

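Total RNA was extracted with Trizol from kidney and liver and made into libraries with a NEBNext Ultra RNA kit, per the labels' protocols. Build mm10 and the tools StringTie, HISAT2 2.0.5 and DESeq2 1.16.1 are listed, per the submitters' processing notes, without roles. The counting tool and its use of strand are not given in the sources used here. The authors deposited raw counts per gene (54532 genes, 20 libraries) and a second table of log2 FPKM values, per the file headers, which held 20 of the 36 genes and served as an alternative only.

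Groups are those of the labels, 5 libraries each. Counts were fitted with edgeR 4.0.16 in R 4.3.3 on the whole table (filterByExpr with a minimum count of 10, TMM, quasi-likelihood F test, Benjamini-Hochberg), with calls at an adjusted p under 0.05. Kidney and liver were each fitted alone, the tissue difference on all 20 libraries, and kidney against liver on the wild types. None of these fits had a term for mouse. SE values come from the fold change and its F statistic, and 95% intervals from the fit's degrees of freedom. Scaled CPM were used for levels. The scripts were tested on simulated data. Alternatives used DESeq2 1.42.0, limma 3.58.1 (voom with quality weights, and limma-trend on log2 FPKM), other scalings and filters, replicate blocks and left-out libraries. No library pair had identical values.

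The 36 genes, the other gene lists and the tests were chosen with earlier results of these data known. Values per library are given for genes called in kidney or between tissues, genes whose kidney groups did not overlap, 7 genes of main interest (Lrp2, Slc34a1, Slc5a2, Kap, Cyp27b1, Cyp24a1 and Hnf4a), and the largest fold change of each role with at least 3 genes. Liver values of Lrp2, Slc13a2 and Acsm2 follow their liver calls, and Slc3a1, Slc13a3 and Lcn2 in liver were picked after their values were seen. Spans of 19 of the 36 genes overlap another gene.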

Additional observations from a re-analysis of the deposited data

Results flagged for a closer look

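Of 106 groups of 5 libraries examined, 11 held a library far from the other 4 (Dixon's test), where chance gives about 1 in 20. In kidney these were Slc13a3 and Slc5a10 in wild-type kidney 3 (205 and 38.3 CPM, both low), Cyp24a1 in wild-type kidney 1 (89.1 CPM, high), Gatm in labelled-knockout kidney 1 (831 CPM, high) and Amn in labelled-knockout kidney 5 (266 CPM, high). In liver they were Dab2, Slc3a1 and Slc5a1 in wild-type liver 6 (18.7, 20.7 and 2.36 CPM, all high), Hnf4a in wild-type liver 3 (337 CPM, low), Slc4a4 in wild-type liver 5 (30.4 CPM, low) and Slc13a2 in labelled-knockout liver 1 (4.27 CPM, high). For Slc13a2 the kidney fold change by genotype minus the liver one was -1.91 on the log2 scale, by a test of the difference itself.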

How the results depend on the processing

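Fold changes below are on the log2 scale. The number of all genes called in kidney, 373 in the edgeR fit, was 1093 with DESeq2, 2151 with limma voom, 948 with all 20 libraries in 1 fit, 902 with title numbers as a replicate block, 237 with log2 FPKM, 590 without wild-type kidneys 1 and 3, and 99 to 921 when 1 library was left out. In liver it was 1448 with DESeq2, 307 with the block and 575 to 913 with 1 library left out, against 893. For the tissue difference it was 605 with DESeq2, 176 without TMM scaling, 681 with voom and 165 to 487 with 1 library left out, against 265. Of the 36 genes, DESeq2 called 2 and voom 7 higher in kidney, log2 FPKM 1 and the fit without labelled-knockout livers 4 and 5 also 1 in liver, and without TMM scaling 0 were lower in kidney than liver. In the tissue difference voom called 1 higher, DESeq2 called 2 lower, and 1 to 2 were lower with 1 library left out.

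Signs turned as follows in kidney, and the cause was not tested. Scaling to the median level of the other proximal tubule genes moved the median of all genes from -0.07 to -0.96, and values on that scale hold this shift. Scaled to the other proximal tubule genes, a scale on which wild-type kidney 3 moved most, the values were Slc34a1 -1.05, Lrp2 -0.26, Cubn -0.31, Amn -0.71, Dab2 -0.59, Slc5a1 -0.50, Slc5a2 -0.87, Slc5a8 -0.57, Slc5a10 -0.14, Slc13a1 -0.10, Slc13a2 -0.77, Slc13a3 -0.018, Slc26a1 -0.48, Slc4a4 -0.11, Slc6a18 -0.68, Slc6a19 -0.39, Slc7a7 -0.34, Slc7a9 -0.67, Slc7a13 -0.28, Napsa -0.66, Acsm3 -0.0027, Miox -0.68, Ggt1 -0.40, Gatm -0.56, Cyp27b1 -0.63, Cyp24a1 -0.18, Hnf4a -0.59, Pdzk1 -0.15 and Kap -0.045. Without TMM scaling they were Slc34a1 -0.071, Slc5a1 -0.086, Slc5a2 -0.033, Slc5a8 -0.11, Slc13a2 -0.0062 and Gatm -0.075, with voom Amn -0.10, Slc5a1 -0.059, Slc5a8 -0.10, Slc9a3 0.18, Napsa -0.037, Miox -0.064 and Gatm -0.15, and without wild-type kidneys 1 and 3 Slc5a1 -0.24, Slc5a8 -0.24, Slc9a3 0.29, Napsa -0.018, Miox -0.14 and Gatm -0.18. With a filter at a mean of 1 CPM Slc34a1 -0.0063 turned. In liver, the value was Hnf4a -0.028 without TMM scaling, Slc7a7 0.0047 without mitochondrially encoded genes, and Slc13a3 -0.12 and Acsm3 0.073 without labelled-knockout livers 4 and 5. Between wild-type kidney and liver, Hnf4a 0.58 was the value without TMM scaling. With 1 library left out, ranges that crossed 0 in kidney were Slc34a1 -0.15 to 0.22, Amn -0.0029 to 0.22, Slc5a1 -0.16 to 0.25, Slc5a2 -0.13 to 0.15, Slc5a8 -0.17 to 0.20, Slc5a12 -0.45 to 0.10, Slc9a3 -0.21 to 0.16, Slc15a2 -0.20 to 0.026 and Gatm -0.32 to 0.23. In liver they were Slc5a1 -0.57 to 0.35, Slc7a7 -0.20 to 0.19, Slc7a8 -0.38 to 0.014 and Pdzk1 -0.17 to 0.026, and for the tissue difference Acsm2 -0.34 to 0.062.

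Whether equal title numbers pair the genotypes cannot be decided from 4 pairs per tissue. The correlation of same-numbered deviations was 0.0846 to 0.236 in kidney and -0.046 to -0.00568 in liver. Only 1 of the 4 pairs in kidney and none in liver correlated best with its own number. With the number as a replicate block, which rests on numbers 1, 3, 4 and 5, signs turned for Slc34a1 -0.033, Slc5a12 0.018 and Slc15a2 0.057 in kidney and for Slc5a1 0.38, Slc7a7 0.0033 and Slc15a2 0.20 in liver. The block called none of the 36 genes in kidney and 2 in liver (Acsm2 was lost, adjusted p = 0.1195), and blocking by mouse called 1 in the tissue difference. Deviations of kidney and liver with the same mouse label correlated at -0.166 to 0.389. Only labelled-knockout mouse 1 and wild-type mouse 5 correlated best with their own number, so the mouse block rests on the labels.

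Depth limits the liver values: 19 of the 36 genes did not pass the filter on low counts there and were not tested, among them 6 with no count and 6 with 1 to 3 counts over all wild-type livers.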
